A study of Mus musculus with 6 samples.

Results

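Expression of 34 genes of glycolysis, lactate transport and the hypoxia response was measured in cancer-associated fibroblasts (CAFs) of mouse mammary tumors. The genes were chosen by name, from the enzymes and transporters that carry glucose to lactate, the regulators of that flux, the oxygen-sensing factors and known hypoxia-inducible genes. All 34 were found by symbol among the 27179 genes of the count table, and all 34 passed the filter on low counts, which left 14855 genes for testing.

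The tumors came from female raGFP-Wnt1 mice. These carry MMTV-Wnt1, a transgene whose viral promoter drives Wnt1 in mammary epithelium and causes mammary tumors, and a Pdgfra H2B-GFP knock-in allele that labels fibroblasts with nuclear green fluorescent protein. The reporter line was C57BL/6 and the Wnt1 line FVB/NJ, and the age of the tumor-bearing mice was not given in the sources used here. GFP-positive CAFs from 3 tumors were sorted by surface CD34, a marker of mesenchymal progenitors, into a CD34 negative and a CD34 positive fraction, which gave 3 bulk RNA-seq libraries per group. Both groups thus shared genotype, tumor and reporter, with no treatment, and differed by the sort alone. Since both fractions of a tumor came from the same tissue, each CD34 negative library has a CD34 positive partner with the same tumor number. Whether each tumor came from a different mouse was not given in the sources used here, so the unit of replication is the tumor. Without the tumor as a block, p-values are set against the spread of libraries within a fraction. With the tumor as a block, they are set against the spread of the within-tumor differences.

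Library totals ran from 16238059 to 86609267 counts, with the CD34 positive library of tumor 1 the smallest and that of tumor 2 the largest. Cd34 itself, in CPM (counts scaled by library size and a composition factor), stood at 79.2, 42.0 and 102 in CD34 negative tumors 1, 2 and 3 and at 678, 563 and 1605 in their CD34 positive partners, so the sort held in each tumor. The summed CPM of 7 fibroblast markers, mostly Col1a1 and Col1a2, lay between 40262 and 58903 in all 6 libraries, although with the tumor as a block Dcn and Lum fell and Pdgfrb rose in CD34 negative CAFs (log2 fold changes -1.12, -0.73 and 0.94). The summed CPM of 6 immune markers lay between 4.89 and 15.4. The CD34 negative library of tumor 3 had the fewest genes with a count, 14314 against 16253 to 19220 in the others. It was also the highest of the 6 libraries for 3516 of the 14855 genes tested, more than any other library. In bulk libraries a lower level may come from fewer cells that use a gene or from less RNA per cell, and these cannot be told apart.

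Glycolysis splits glucose into pyruvate, and lactate dehydrogenase turns pyruvate into lactate, which leaves the cell through monocarboxylate transporters. Under low oxygen the prolyl hydroxylases of the Egln family no longer mark HIF-1alpha (Hif1a) and HIF-2alpha (Epas1) for destruction, and these factors switch on glycolytic enzymes and other hypoxia-inducible genes through promoter sites with the core ACGTG or GCGTG. Much of this control acts on HIF protein stability, so RNA levels of Hif1a or Epas1 are not a readout of HIF activity. In tumors, glycolytic fibroblasts are known as a source of lactate for neighboring cells.

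With the libraries treated as independent, no member passed an adjusted p of 0.05 between CD34 negative and CD34 positive CAFs in voom with limma. The same test called 0.121% of all genes, 18 of 14855. At an unadjusted p under 0.05, 4 members were lower and 1 was higher in CD34 negative CAFs, where 7.10% and 7.23% of all genes were lower and higher; edgeR without the tumor also called 0 members (0.0606% of all genes) and DESeq2 called 3 (4.70%). With the tumor entered as a block, 6 members were lower and 1 was higher in CD34 negative CAFs. The blocked fit called 8.57% of all genes, 4.25% lower and 4.32% higher. The members that fell were the lactate transporter Slc16a1, the secreted peptide gene Adm, Ndrg1, the kinase Pdk1, the enzyme Pgk1 and Hif1a, and the member that rose was Epas1. Slc16a1, Adm and Epas1 were called in each blocked fit that was run, those without 1 tumor and the edgeR and DESeq2 fits included. The remaining calls depended on the tool or tumor. edgeR with the block called 4 members (Slc16a1, Epas1, Ndrg1 and Adm; 3.87% of all genes), DESeq2 with the block called 7, with Pfkfb3 in place of Pdk1 (11.7% of all genes), and the blocked voom fit called 3 without tumor 2, 8 without tumor 1 and 12 without tumor 3, where Pfkp, Eno1, Slc16a3, Pfkfb3 and Bnip3 joined the 7.

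**Figure D1:**
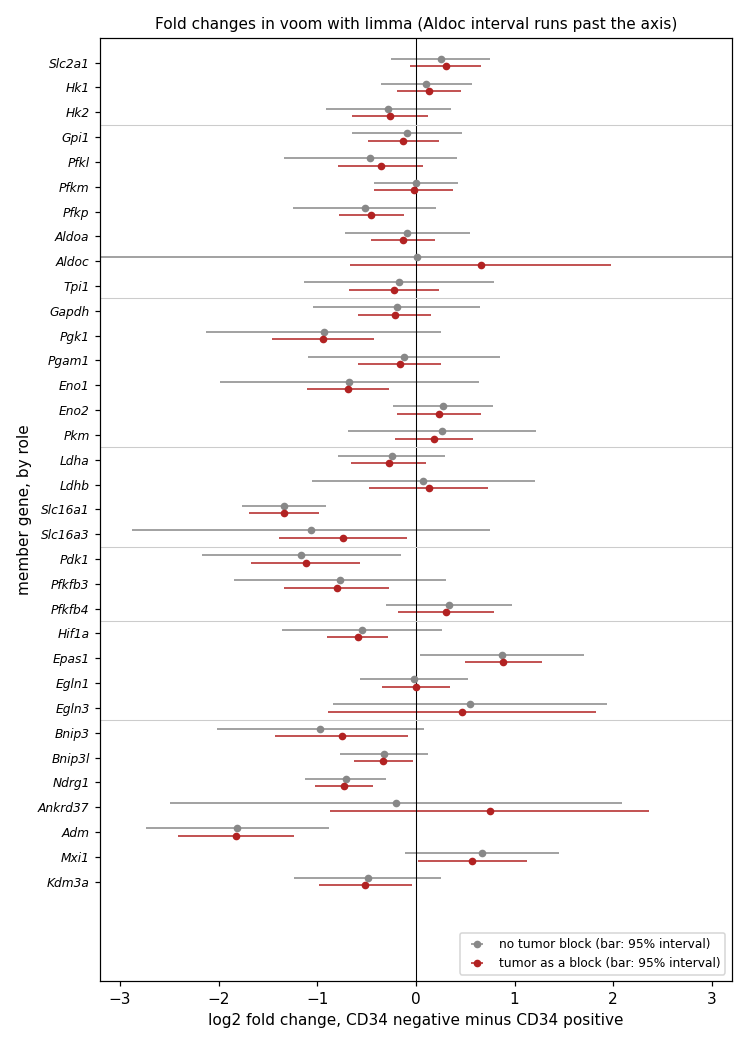
Log2 fold change (CD34 negative minus CD34 positive, horizontal axis) of each of the 34 members, grouped by role from glucose entry at the top to hypoxia-inducible genes at the bottom. Grey points are the fit without a tumor block and red points the fit with the tumor as a block, with bars for the 95% confidence interval. Adm and Slc16a1 lie farthest to the left, Epas1 lies to the right in both fits, and most glycolytic enzymes straddle 0.

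The upstream 250 bases of 5 of the 6 members that fell with the block are shown because these genes were called, and those of Ldha because it was an abundant member and was not called. No window was found for Epas1, Ndrg1 or Bnip3l. Sequences are from RefSeq on GRCm38.p6, all on the plus strand and read 5′ to 3′ toward a RefSeq transcript start, which follows the last base. That start need not be the outer end of the gene: the Hif1a and Ldha windows lie inside the annotated gene, and the Pdk1 window ends a few bases past the outer end. Ldha and Pdk1 each have another window, which is not printed. Capitals mark ACGTG or its variant GCGTG on either strand, so that the reverse complements of both are in capitals too and a stretch that reads ACGTG on both strands counts for each. The windows are Slc16a1 at chr3:104638414-104638663, Adm at chr7:110627407-110627656, Pdk1 at chr2:71872974-71873223, Pgk1 at chrX:106186850-106187099, Hif1a at chr12:73907617-73907866 and Ldha at chr7:46845554-46845803.
Slc16a1: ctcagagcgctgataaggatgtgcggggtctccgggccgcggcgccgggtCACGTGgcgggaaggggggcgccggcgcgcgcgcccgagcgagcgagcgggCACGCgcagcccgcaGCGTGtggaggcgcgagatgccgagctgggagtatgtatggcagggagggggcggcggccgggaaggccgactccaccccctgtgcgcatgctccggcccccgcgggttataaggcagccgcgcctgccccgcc
Adm: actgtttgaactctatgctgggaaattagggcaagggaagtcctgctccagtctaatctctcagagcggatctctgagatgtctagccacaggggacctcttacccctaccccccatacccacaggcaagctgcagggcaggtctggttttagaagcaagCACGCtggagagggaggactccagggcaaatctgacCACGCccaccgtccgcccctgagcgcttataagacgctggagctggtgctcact
Pdk1: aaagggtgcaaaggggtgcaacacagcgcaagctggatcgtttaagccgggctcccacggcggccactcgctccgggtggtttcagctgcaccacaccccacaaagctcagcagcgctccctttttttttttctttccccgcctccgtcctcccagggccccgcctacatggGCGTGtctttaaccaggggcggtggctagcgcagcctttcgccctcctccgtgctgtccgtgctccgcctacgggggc
Pgk1: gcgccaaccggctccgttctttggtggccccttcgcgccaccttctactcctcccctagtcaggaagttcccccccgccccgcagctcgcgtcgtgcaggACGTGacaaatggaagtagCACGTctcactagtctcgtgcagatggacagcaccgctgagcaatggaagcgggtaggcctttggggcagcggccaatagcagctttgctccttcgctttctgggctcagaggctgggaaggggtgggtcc
Hif1a: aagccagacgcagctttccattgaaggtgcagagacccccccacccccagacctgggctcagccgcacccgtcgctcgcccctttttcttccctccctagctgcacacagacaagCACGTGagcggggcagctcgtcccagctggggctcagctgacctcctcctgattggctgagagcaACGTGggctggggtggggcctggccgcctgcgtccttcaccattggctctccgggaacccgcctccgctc
Ldha: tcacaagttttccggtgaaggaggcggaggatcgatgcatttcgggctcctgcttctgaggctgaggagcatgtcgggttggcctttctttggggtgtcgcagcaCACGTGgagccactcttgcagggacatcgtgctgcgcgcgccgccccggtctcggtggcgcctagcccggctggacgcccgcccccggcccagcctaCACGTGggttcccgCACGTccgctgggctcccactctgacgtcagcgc

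The printed Ldha window held 5 matches, the Slc16a1 window 4, the Hif1a window 3, the Adm and Pgk1 windows 2 each and the printed Pdk1 window 1. The other Ldha window (chr7:46846832-46847081) held 1 match, and the other Pdk1 window (chr2:71874654-71874903) held 0. Of the 31 members with a window, 28 (90.3%) held a match in at least 1 window, against 11226 of 27025 genes (41.5%). The core ACGTG alone was in 17 of 31 members (54.8%) and in 18.5% of all genes. Counted by window rather than by gene, 37 of 48 member windows (77.1%) held a match, against 38.6% of 32851 windows. The members' windows were richer in G and C, with a median of 60.4% against 52.4% over all windows, and the part of this in the share of matches was not tested. A match is a run of letters and not a measured binding site. The members were chosen by name as glycolytic or known hypoxia-inducible genes, so the share describes that choice and not these CAFs. The comparison genes were not limited to those that passed the filter on low counts. By role, and among genes with a window, a match was in 3 of 3 glucose entry, 5 of 7 hexose to triose and 5 of 6 triose to pyruvate genes. It was in 4 of 4 lactate genes, 3 of 3 flux regulators, 3 of 3 oxygen-sensing genes and 5 of 5 hypoxia-inducible genes.

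Lactate leaves and enters cells through MCT1, encoded by Slc16a1 (NCBI gene 20501, chr3:104638664-104658462, GRCm38.p6), and MCT4, encoded by Slc16a3. Slc16a1 had 38.2, 33.4 and 32.7 CPM in CD34 negative CAFs of tumors 1, 2 and 3 and 86.5, 75.4 and 104 CPM in CD34 positive CAFs. The highest CD34 negative library was below the lowest CD34 positive one, with means of 34.8 ± 2.96 and 88.6 ± 14.5 CPM (SD, n = 3 each). On the log2 scale the difference was -1.34 ± 0.19 (SE; adjusted p 0.0509 without the block and 0.00164 with it). Its log2 ratio was -1.18, -1.17 and -1.67 within tumors 1, 2 and 3, so no single tumor carried the difference. Slc16a3 had 5.11, 22.3 and 16.8 CPM in CD34 negative and 5.82, 51.4 and 14.0 CPM in CD34 positive CAFs. Its groups overlapped and tumor 3 went the other way, with an adjusted p of 0.58 without the block and 0.161 with it. Slc16a3 overlaps Csnk1d, which held 42864 counts against 6791 for Slc16a3 over the 6 libraries, so its counts carry an uncertainty if strand was not used in counting.

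The lactate dehydrogenase subunits did not pass either test. Ldha, the subunit favored for making lactate, had 421, 370.1 and 314 CPM in CD34 negative and 376, 616 and 375 CPM in CD34 positive CAFs. The ranges overlapped and tumor 1 was on the opposite side to tumors 2 and 3, with a log2 fold change of -0.25 (95% interval -0.79 to 0.30). Ldhb had 11.2, 10.8 and 3.71 CPM against 10.6, 9.17 and 4.23 CPM, and its levels followed the tumor more than the fraction. Per length, Ldha was far above Ldhb in every library, with a log2 ratio between 4.52 and 5.88.

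Among the hypoxia-inducible members, Adm and Ndrg1 were lower in the CD34 negative library of each tumor. Adm (NCBI gene 11535, chr7:110627657-110629820) encodes adrenomedullin, a secreted peptide that dilates vessels and acts on endothelium. It had 88.7, 82.0 and 32.6 CPM in CD34 negative and 166, 337 and 203 CPM in CD34 positive CAFs of tumors 1, 2 and 3. The groups did not overlap, and the log2 ratio was -0.91, -2.04 and -2.63 within tumors 1, 2 and 3. At -1.81 ± 0.41 (SE) its log2 fold change was the largest in size of the 34 members in both fits (adjusted p 0.108 without the block and 0.00397 with it). Ndrg1 (NCBI gene 17988, chr15:66929318-66969641), a stress-responsive gene that rises in low oxygen, had 144, 139.7 and 175 CPM in CD34 negative and 217, 274 and 268 CPM in CD34 positive CAFs. These groups did not overlap either, and Ndrg1 differed by -0.71 ± 0.18 on the log2 scale (adjusted p 0.143 without the block and 0.0109 with it). Slc16a1, Ndrg1 and Adm were the 3 members whose CD34 negative libraries all lay below the CD34 positive ones, while 10.0% of all genes did so. No member had the reverse order, which 10.4% of all genes had.

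The other hypoxia-inducible members did not pass the blocked or unblocked test. The mitophagy receptor gene Bnip3 had 10.3, 20.7 and 35.0 CPM in CD34 negative and 24.1, 52.5 and 28.6 CPM in CD34 positive CAFs, lower in tumors 1 and 2 and higher in tumor 3. Its relative Bnip3l had 82.2, 70.9 and 57.8 CPM against 104, 82.0 and 79.5 CPM, lower in each tumor but with overlapping groups (log2 fold change -0.32 ± 0.20). Kdm3a, a histone demethylase, had 64.9, 40.7 and 28.5 CPM against 77.6, 45.5 and 67.6 CPM. Most of its difference was in tumor 3, where the log2 ratio was -1.25 against -0.26 and -0.16 in tumors 1 and 2. The CD34 negative library of tumor 3 had the fewest genes with a count, and the part of this in the tumor 3 values of members was not tested. Mxi1, which opposes Myc, had 51.3, 30.0 and 67.4 CPM against 46.6, 26.5 and 24.9 CPM and was the only hypoxia-inducible member above 0 in the fit without the block (log2 fold change 0.67 ± 0.34, adjusted p 0.2 with the block). Ankrd37 was near the limit of detection, with 6.93 CPM in CD34 negative tumor 3 and at most 1.76 CPM in the other 5 libraries, and its fold change turned sign between fits, from -0.21 without the block to 0.75 with it. It overlaps Ufsp2, which held 10452 counts against 521. The median log2 fold change of the 7 hypoxia-inducible members was -0.49, against -0.03 over all genes tested, and its value was -0.34, -0.84 and -0.46 within tumors 1, 2 and 3.

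**Figure D2:**
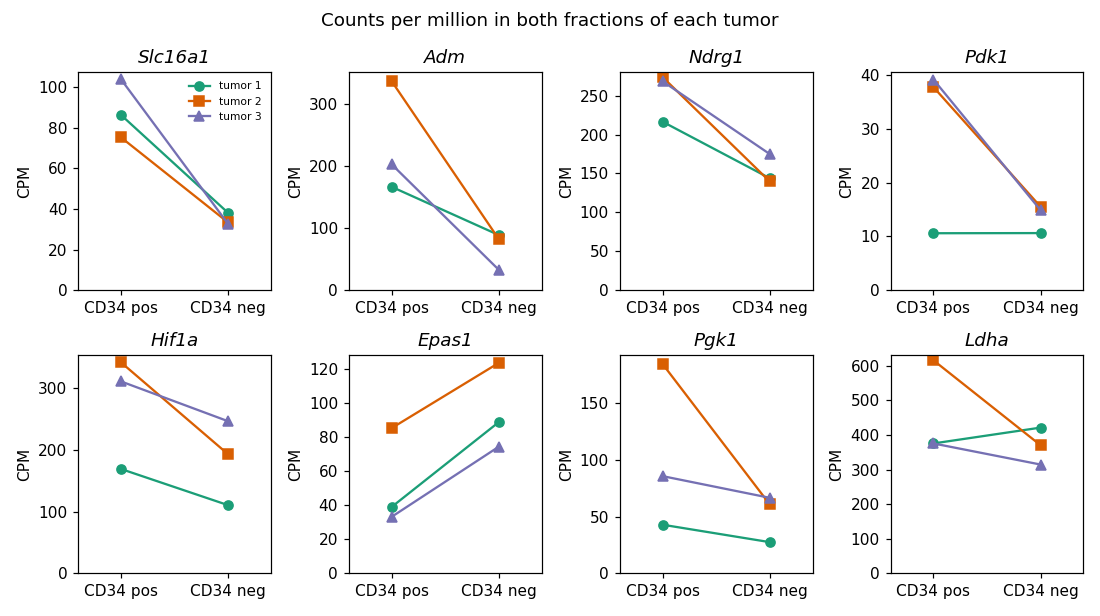
CPM (vertical axes, from 0) of members in the CD34 positive and CD34 negative library of each tumor, with a line joining the 2 libraries of a tumor. The lines of Slc16a1, Adm, Ndrg1, Hif1a and Pgk1 fall in each of the 3 tumors and those of Epas1 rise in each.

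With the tumor as a block, the HIF-alpha genes moved in opposite directions. Epas1 (NCBI gene 13819, chr17:86753864-86833410), which encodes HIF-2alpha, had 88.7, 123.5 and 74.3 CPM in CD34 negative and 39.0, 85.2 and 33.2 CPM in CD34 positive CAFs. It was higher in the CD34 negative library of each tumor, although the CD34 positive library of tumor 2 lay above the CD34 negative library of tumor 3. The difference was 0.87 ± 0.36 on the log2 scale (adjusted p 0.332 without the block and 0.0146 with it). Hif1a (NCBI gene 15251, chr12:73901324-73947554), which encodes HIF-1alpha, had 110.4, 193 and 246 CPM in CD34 negative and 169, 341 and 310.4 CPM in CD34 positive CAFs. It was lower in CD34 negative CAFs within each tumor, by log2 ratios of -0.61, -0.82 and -0.34, although the groups overlapped, with tumor 1 low in both fractions. The adjusted p of Hif1a was 0.524 without the block and 0.0291 with it. edgeR with the block and the blocked voom fit without tumor 2 did not call Hif1a.

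Within a library, the log2 ratio of Hif1a to Epas1 per length was 0.48, 0.81 and 1.90 in CD34 negative and 2.28, 2.17 and 3.39 in CD34 positive CAFs of tumors 1, 2 and 3. Hif1a was thus the more abundant of the pair in all 6 libraries, and each CD34 negative ratio lay below each CD34 positive ratio. The difference in the mean log2 ratio was -1.55, with a p of 0.1 in a two-sided exact permutation test, the smallest p that 3 against 3 libraries allow, and 0.77 after adjustment over the 11 pairs of related genes compared. None of the other 10 pairs came below a p of 0.2 in that exact test. The hydroxylase genes did not pass. Egln1 had 49.9, 68.6 and 67.2 CPM in CD34 negative and 47.6, 81.1 and 56.1 CPM in CD34 positive CAFs, with a log2 fold change of -0.02 (95% interval -0.56 to 0.53). Egln3, itself a hypoxia-inducible gene, was low, between 1.13 and 9.08 CPM, with log2 ratios of 0.01, -0.38 and 2.99 in tumors 1, 2 and 3.

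Of the 3 members that set the rate of glycolysis or the fate of pyruvate, 1 was called with the block, where 8.57% of all genes were. Pdk1 (NCBI gene 228026, chr2:71873215-71903858), the kinase that keeps pyruvate out of mitochondria by inhibiting pyruvate dehydrogenase, had 10.6, 15.5 and 14.9 CPM in CD34 negative and 10.6, 37.8 and 39.2 CPM in CD34 positive CAFs. The libraries of tumor 1 were level and those of tumors 2 and 3 differed by log2 ratios of -1.28 and -1.40. Pdk1 differed by -1.16 ± 0.44 on the log2 scale (adjusted p 0.293 without the block and 0.0235 with it), and the blocked edgeR and DESeq2 fits did not call it. Pfkfb3 makes fructose 2,6-bisphosphate, the activator of phosphofructokinase, and had 24.6, 12.5 and 5.75 CPM against 33.0, 22.7 and 16.9 CPM. It was lower in each tumor, with an adjusted p of 0.0696 with the block, and passed in the blocked DESeq2 fit. The related Pfkfb4 had 19.9, 21.5 and 24.8 CPM against 11.7, 15.5 and 27.2 CPM and did not pass. The ratio of Pfkfb3 to Pfkfb4 was lower in the CD34 negative library of each tumor, by -1.31 in the mean log2 ratio, with an exact permutation p of 0.2.

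Glucose entry genes showed no called difference. Slc2a1, the glucose transporter GLUT1, had 38.8, 55.1 and 48.1 CPM in CD34 negative and 37.3, 46.5 and 32.2 CPM in CD34 positive CAFs, higher in each tumor but with overlapping groups (log2 fold change 0.25 ± 0.22, adjusted p 0.309 with the block). Hexokinase, which traps glucose as its phosphate, was mostly Hk2, whose level per length exceeded that of Hk1 in all libraries. Hk2 had 461, 281 and 209.6 CPM in CD34 negative and 392, 356 and 337 CPM in CD34 positive CAFs, and Hk1 had between 44.2 and 68.8 CPM. Neither hexokinase passed.

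From hexose to triose phosphate, none of 7 members was called in voom with or without the block, all tumors included. The phosphofructokinase subunit gene Pfkp, at the committed step, had 29.3, 47.7 and 56.9 CPM in CD34 negative and 38.6, 72.9 and 70.6 CPM in CD34 positive CAFs. It was lower in each tumor, with an adjusted p of 0.0961 with the block, and was called in the blocked fit without tumor 3. Pfkl was also lower in each tumor, with log2 ratios of -0.08, -0.62 and -0.03, so that nearly all of it was in tumor 2. Pfkm was level, between 21.1 and 25.4 CPM in all 6 libraries. Over the 6 libraries, Pitrm1, which overlaps Pfkp, held 19855 counts against 14726 for Pfkp. Senp1, which overlaps Pfkm, held 6757 against 6365 for Pfkm. Counts of both members carry an uncertainty if strand was not used in counting. Gpi1 (phosphoglucose isomerase), Aldoa (the main aldolase here) and Tpi1 (triose phosphate isomerase) had log2 fold changes of -0.09, -0.09 and -0.17. Aldoc was close to absent in tumor 3, with 0 and 0.0353 CPM, and its fold change had a 95% interval from -5.01 to 5.03.

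From triose phosphate to pyruvate, 1 of 6 members was called with the block, where 8.57% of all genes were. Pgk1 (NCBI gene 18655, chrX:106187100-106203699), which makes the first ATP of the pathway, had 27.5, 60.8 and 66.6 CPM in CD34 negative and 42.9, 184 and 85.7 CPM in CD34 positive CAFs. It was lower in CD34 negative CAFs of each tumor, with log2 ratios of -0.64, -1.60 and -0.36, and the groups overlapped. Pgk1 differed by -0.93 ± 0.52 on the log2 scale (adjusted p 0.455 without the block and 0.0354 with it), and neither edgeR with the block nor the blocked voom fit without tumor 2 called it. Eno1 (enolase) had 29.7, 83.4 and 58.3 CPM against 34.3, 179 and 79.8 CPM, with an adjusted p of 0.0525 with the block. Gapdh, Pgam1 (phosphoglycerate mutase) and Pkm (pyruvate kinase) had log2 fold changes of -0.20, -0.12 and 0.26, all with intervals that spanned 0. Eno2, the enolase best known from neurons, had 17.6 to 30.8 CPM and a log2 fold change of 0.27.

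Near-identical gene copies bear on the enzymes of this stretch. Of the 50-base words in the members' coding transcripts (GENCODE M21), 68.0% of those of Pgk1, 58.4% of Gapdh, 49.5% of Eno1 and 41.5% of Pgam1 recurred in transcripts of other genes, against 0% for Slc16a1, Adm, Ndrg1, Epas1 and Pdk1 and 1.87% for Hif1a. Copies with at least 20% of a member's words were in the count table for 3 members. Gapdh held only 20.4% of the counts of itself with Gapdh-ps15 and Gm12070. Eno1 held 31.7% of its sum with Eno1b, and this share was 28.3%, 30.4% and 24.9% in CD34 negative and 37.4%, 33.5% and 31.7% in CD34 positive CAFs. The share of Eno1 was thus lower in each CD34 negative library, and with the copy added its blocked log2 fold change was -0.32 (adjusted p 0.404) in place of -0.68. Summing turned the Gapdh fold change from -0.20 to 0.09. Bnip3l, with 72.7% of its sum with Bnip3l-ps, went from -0.32 to -0.24. No copy of Pgk1 was matched in the table, so its level and its call stay uncertain in this respect.

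**Figure D3:**
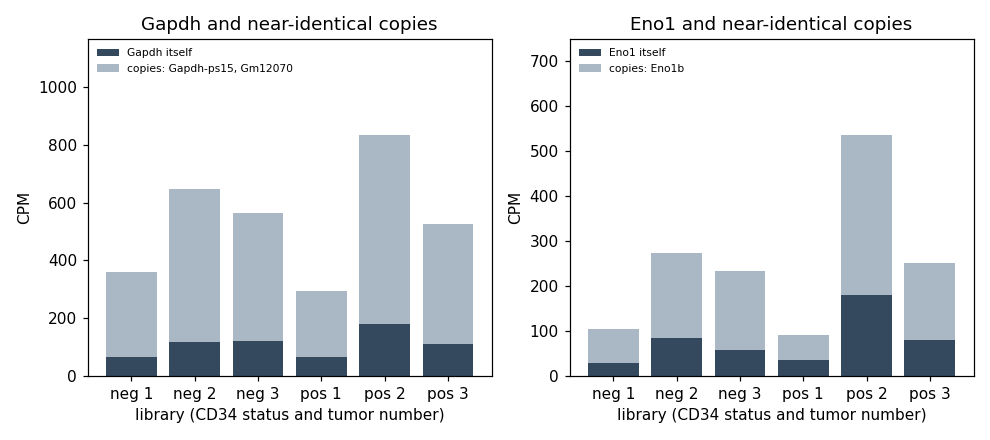
CPM (vertical axis, from 0) in each of the 6 libraries for Gapdh and Eno1, with the part from the member itself and the part from its near-identical copies stacked. Copies make up most of the Gapdh and Eno1 sums.

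Levels of the glycolytic enzymes also varied by tumor. The summed CPM of 16 genes, the enzymes from hexokinase to pyruvate kinase and Slc2a1, was 1581, 2055 and 1939.7 in CD34 negative and 1396, 2974 and 1909 in CD34 positive CAFs of tumors 1, 2 and 3. Tumor 1 was lowest in both fractions, and the CD34 positive library of tumor 2 was highest. That library was the highest of the 6 for 17 of 34 members, and for 10 of these 16 genes, against 17.6% of all genes. A library of tumor 1 was the lowest for 18 of 34 members, against 29.6% of all genes. In a voom fit with terms for tumor and fraction, the tumor term passed for 8 members (Pfkp, Gapdh, Pgk1, Pgam1, Eno1, Pkm, Slc16a3 and Hif1a) and for 4.03% of all genes. edgeR called the tumor term for 1 member, Eno1 (adjusted p 0.0431), and for 1.12% of all genes. Slc16a1, Adm and Ndrg1 did not pass the tumor term, with adjusted p of 0.597, 0.213 and 0.482.

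**Figure D4:**
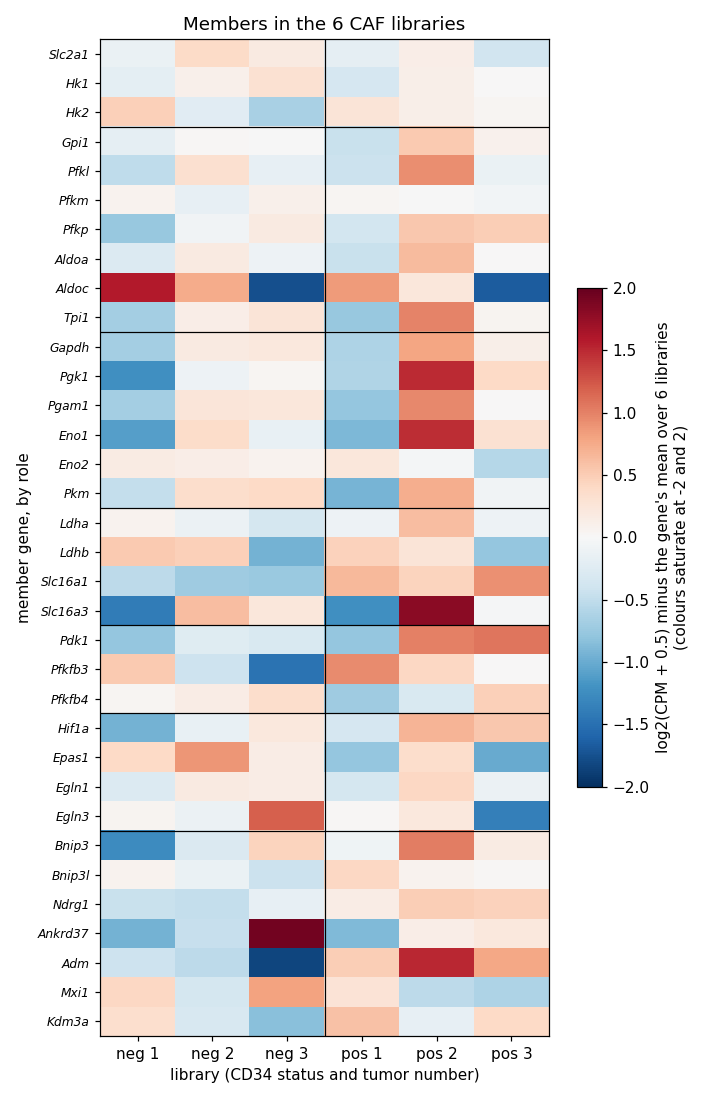
Heat map of the 34 members (rows, by role) in the 6 libraries (columns, by CD34 status and tumor), colored by log2(CPM + 0.5) relative to the mean of the gene over the 6 libraries. The CD34 positive library of tumor 2 is highest for 17 members, most of them enzymes, and the libraries of tumor 1 are lowest for 18.

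The median log2 fold change of the 34 members was -0.20 (all genes tested, -0.03), with 23 members below 0, where 52.3% of all genes were. Within tumors 1, 2 and 3 the members' median was 0.01, -0.56 and -0.11. In the fit without the block, leaving out the CD34 positive library of tumor 2 gave a members' median of 0.11. Its sign in that fit thus depended on that library, but the CD34 negative partner was kept, which broke the pairing. In all 3 tumors, 11 members were lower and 3 were higher in the CD34 negative library, where 23.4% and 22.8% of all genes did so. The lactate group had a median of -0.66, which became 0.08 without the same library in that fit, while Slc16a1 in that group stayed lower. With the block but not tumor 2, the lactate median was -0.037. The flux regulators had a median of -0.77, the oxygen-sensing genes 0.27 (-0.18 without tumor 3), glucose entry 0.11, hexose to triose -0.09 and triose to pyruvate -0.16.

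Levels of cycling and other cell type markers differed between these libraries as well. The summed CPM of 4 cycling markers (Mki67, Top2a, Ccnb1 and Birc5) was 9.10, 52.0 and 27.3 in CD34 negative and 34.2, 244 and 67.9 in CD34 positive CAFs, lower in the CD34 negative library of each tumor, and highest, like the enzymes, in the CD34 positive library of tumor 2. With the block, 3 of the 4 fell. Endothelial markers, 5 genes, summed to 10.4 to 29.6 CPM in CD34 negative and 55.2 to 122 CPM in CD34 positive CAFs, and 1 of the 5 (Tek) fell with the block. Tek made up most of that difference, with 13.4, 6.53 and 5.45 CPM in CD34 negative and 65.6, 48.8 and 115.6 CPM in CD34 positive CAFs. Kdr, at most 12.6 CPM, was also lower in the CD34 negative library of each tumor. Pecam1, at most 12.9 CPM, was lower there in tumors 1 and 3 and higher in tumor 2. Cdh5, at most 4.18 CPM, was higher in the CD34 negative library of each tumor, and Emcn was higher in tumors 1 and 2. Pericyte markers, 6 genes, summed to 211 to 236 CPM in CD34 negative and 86.8 to 188 CPM in CD34 positive CAFs, with 3 that rose (Cspg4, Mcam and Notch3) and 2 that fell (Kcnj8 and Abcc9) with the block. The remaining one, Rgs5, had 4.08, 3.72 and 10.7 CPM in CD34 negative and 1.18, 1.03 and 0.247 CPM in CD34 positive CAFs. Its groups did not overlap, and it was not called (adjusted p 0.0803 with the block). Epas1, which rose in CD34 negative CAFs, is known to be abundant in endothelial cells and pericytes. The pericyte sum was higher in CD34 negative CAFs, and the endothelial sum was lower, mostly through Tek. Epithelial markers, 6 genes, summed to 149, 125 and 48.3 CPM in CD34 negative and 129.7, 82.4 and 12.8 CPM in CD34 positive CAFs. The sum was higher in the CD34 negative library of each tumor, as were all of these genes but Krt14, and none was called. Of 8 genes of dissociation stress, the heat shock genes Hspa1a and Hspa1b rose (blocked log2 fold changes 1.30 and 1.35, adjusted p 0.00164 and 0.00319) and Atf3 fell (-0.62, adjusted p 0.0192), and the sums overlapped, at 17344 to 25644 and 14727 to 22939 CPM. The part of these markers in the members' differences was not tested.

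By level per length, averaged over the 6 libraries and counting each gene alone, Ldha led at 214 CPM per kilobase, followed by Pkm at 179, Aldoa at 136, Adm at 109.7 and Gapdh at 89.0. This order depends on the copies: with its near-identical copies added, Gapdh came to 437 CPM per kilobase of its own length, above Ldha. The lowest members were Aldoc at 1.07 and Egln3 at 1.59 CPM per kilobase. Slc16a1 (13.9 CPM per kilobase) exceeded Slc16a3 (7.47 CPM per kilobase) in the mean, and the pair changed order in tumor 2, where the log2 ratio was -0.20 in CD34 negative and -0.23 in CD34 positive CAFs.

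Other genes of these pathways were taken from lists of 78 names, of which 77 matched a symbol. None of those tested passed without the block in voom or edgeR, and 2 did in DESeq2. With the block, which called 4.25% of all genes lower and 4.32% higher, 0 of 20 other glycolysis genes were lower and 1 was higher. The riser was Bpgm, which makes 2,3-bisphosphoglycerate, with 188, 237 and 149.8 CPM in CD34 negative and 107, 140.5 and 39.0 CPM in CD34 positive CAFs (blocked log2 fold change 1.13, adjusted p 0.0133). Of 33 other hypoxia-inducible genes, 4 were lower and 3 were higher with the block, where 4.25% and 4.32% of all genes were. Rbpj, the DNA-binding partner of Notch, had 48.0, 48.8 and 54.4 CPM against 79.5, 90.7 and 120.1 CPM (adjusted p 0.00513). Higd1a, Fam162a and Tmem45a fell too, with blocked log2 fold changes of -0.85, -0.85 and -0.79.

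The risers were Ddit4, Bhlhe40 and Stc2. Ddit4, an inhibitor of mTORC1, had 89.4, 88.5 and 90.2 CPM in CD34 negative and 63.3, 60.8 and 30.9 CPM in CD34 positive CAFs (adjusted p 0.037 with the block). Bhlhe40, a transcriptional repressor, was the most abundant of them, at 1033 to 1310.0 CPM against 682 to 989.8 CPM. Stc2, a secreted glycoprotein, rose by 0.99 on the log2 scale with the block. The classic HIF targets Vegfa and Car9, named after their values were seen, did not pass. Vegfa had 130.1, 117 and 147 CPM against 111, 149 and 189 CPM, and Car9 stayed below 1 CPM in all libraries. Of 10 other oxygen-sensing genes, 1 was lower with the block and 0 were higher. It was Arnt2, a partner of HIF-alpha proteins best known from neurons, at 1.48 to 2.67 CPM against 4.77 to 10.5 CPM (adjusted p 0.0227).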

How the data were processed

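RNA from 6 libraries, 3 per group, was sequenced on an Illumina NextSeq 500 after the TruSeq RNA v2 protocol. Per the study's methods and the submitters' processing notes, the authors aligned reads to GRCm38 (mm10) and counted them per NCBI gene with featureCounts of Rsubread; strand use and handling of reads with several matches were not given in the sources used here. The deposited values are raw counts per library, and no authors' normalization was applied.

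From these, genes were filtered with filterByExpr (minimum count 10), scaled with TMM factors (0.941 to 1.04) and compared with voom and limma, two-sided, with Benjamini-Hochberg adjustment over 14855 genes at 0.05. The study states no tumor term, so the first fit has none. That fit called 3 genes higher in CD34 negative CAFs, and the blocked fit called 642. The study reports far more than 3 genes raised in CD34 negative CAFs, so the first fit did not reproduce its list. The tumor number pairs the libraries, because both fractions came from one tumor, and deviations from group means correlated at 0.373, 0.350 and 0.219 within tumors 1, 2 and 3. Both fits are given. The 1310 genes without a symbol were kept, unlike in the study. Within-tumor ratios are differences of voom log2 CPM. Ratios of related genes used counts plus 0.5 per length. Alternatives were other scalings, filters, tools (edgeR 4.0.16, limma 3.58.1, DESeq2 1.42.0, R 4.3.3) and left-out libraries. Scripts were tested on simulated data. All 34 members were named, and all lists were chosen, with earlier results of these data known. Every member is accounted for, and of the other pathway genes those past 0.05 in either fit are named.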

Additional observations from a re-analysis of the deposited data

How the results depend on the processing

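Calls depended mainly on the replicate block, the tumor number that both fractions share. Called members numbered 0 in the fit without it, and 1 with relative log expression scaling, 3 in DESeq2, 1 with quality weights, 7 with the block, 4 with the block in edgeR, 7 with the block in DESeq2, 8 with the block but not tumor 1, 3 with the block but not tumor 2, 12 with the block but not tumor 3, 7 with copies summed and the block and 7 with thinned counts and the block. All genes called numbered 18 without the block, and 9 in edgeR, 698 in DESeq2, 161 with quality weights, 1273 with the block, 575 with the block in edgeR, 1733 with the block in DESeq2, 1134 with the block but not tumor 1, 851 with the block but not tumor 2, 2019 with the block but not tumor 3, 1273 with copies summed and the block and 1028 with thinned counts and the block. Other pathway genes called numbered 0 without the block, and 2 in DESeq2, 9 with the block, 3 with the block in edgeR, 10 with the block in DESeq2, 8 with the block but not tumor 1, 4 with the block but not tumor 2, 14 with the block but not tumor 3, 9 with copies summed and the block and 6 with thinned counts and the block. Thinned counts, summed copies and the tumor term were chosen after seeing the data. The tumor term passed for 1 member in edgeR. Other alternatives kept the count of called members at 0.

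Without the block and with 1 library or 1 tumor left out, all genes called ranged from 0 to 86, and no member was called. The members' median log2 fold change ranged -0.36 to 0.11, the lactate median -0.85 to 0.076, the oxygen-sensing median -0.18 to 0.80 and the hypoxia-inducible median -0.81 to -0.39. With the block but not tumor 2 the lactate median was -0.037. The difference in log2 ratio ranged -0.070 to 0.44 for Pfkl to Pfkp, -2.59 to 1.73 for Aldoa to Aldoc and -0.97 to 0.16 for Bnip3 to Bnip3l. Log2 fold changes of genes whose sign turned ranged as follows: Hk1 -0.0030 to 0.23, Gpi1 -0.34 to 0.11, Pfkl -0.69 to 0.11, Pfkm -0.074 to 0.086, Aldoa -0.36 to 0.15, Aldoc -1.77 to 2.23, Tpi1 -0.59 to 0.23, Gapdh -0.54 to 0.13, Pgam1 -0.53 to 0.29, Pkm -0.20 to 0.61, Ldhb -0.23 to 0.51, Slc16a3 -1.55 to 0.20, Egln1 -0.16 to 0.22, Egln3 -0.24 to 1.63 and Ankrd37 -1.07 to 0.67.

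In the other settings these members, none of them called there, turned sign. Pfkm was -0.0046 with relative log expression scaling, -0.0049 in DESeq2, -0.053 with quality weights, -0.024 with the block, -0.011 with the block in DESeq2, -0.036 with the block but not tumor 1, -0.11 with the block but not tumor 3 and -0.024 with copies summed and the block. Aldoc was -0.041 with no filter. Egln1 was 0.0052 in edgeR, 0.051 with quality weights, 0.0035 with the block, 0.028 with the block in edgeR, 0.016 with the block in DESeq2, 0.16 with the block but not tumor 2 and 0.0034 with copies summed and the block. Ankrd37 was 1.06 in edgeR, 1.06 in DESeq2, 0.75 with the block, 0.33 with the block in edgeR, 0.32 with the block in DESeq2, 0.83 with the block but not tumor 1, 1.70 with the block but not tumor 2, 0.75 with copies summed and the block and 1.29 with thinned counts and the block. Aldoa was 0.056 with quality weights and 0.017 with the block but not tumor 2. Gpi1 was 0.069 with the block but not tumor 2. Tpi1 was 0.14 with the block but not tumor 2. Gapdh was 0.019 with the block but not tumor 2, 0.086 with copies summed and 0.014 with copies summed and the block. Pgam1 was 0.15 with the block but not tumor 2. Ldhb was -0.018 with the block but not tumor 2. Slc16a3 was 0.14 with the block but not tumor 2. Egln3 was -0.25 with the block but not tumor 3. The cause was not tested. Depth limits what can be said of Aldoc and Ankrd37, which had few counts in several libraries. Blocked fits without 1 tumor keep 2 libraries per group and lean on the variance pooled across genes.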
